A study of Homo sapiens with 6 samples.

Results

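Kinesins are the motor proteins that walk along microtubules or take them apart, and the counts table of this study held 42 kinesin genes among 60564 listed genes. They were chosen by symbol alone: KIF followed by digits and at most 1 letter A, B or C, or KIFC1, KIFC2 and KIFC3. CENPE, also a kinesin, carries another type of symbol and is given here with the partner genes. From their textbook roles the 42 genes were placed in 3 classes, with 15 mitotic kinesins, 17 transport kinesins, and 10 kinesins of cilia, signalling or less studied function. Of the 42 genes, 36 had enough counts to be tested, among them 13 mitotic, 15 transport and 8 ciliary and other kinesins.

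The RNA-seq libraries came from CAL27, an established human line of oral squamous cell carcinoma. In 3 of them (CNTNAP2-203 OE, for overexpression) the cells stably carried CNTNAP2-203, 1 transcript of the gene CNTNAP2, brought in by lentivirus. The 3 control libraries (genotype WT in the labels, EGFP in their descriptions) came from cells infected with the control vector. Both lines were kept in medium with fetal bovine serum, and puromycin at 5 μg/ml was applied to both for 2 weeks. The labels name neither the promoter of the insert nor separate infections, cultures or clones behind the 3 libraries of each line, so the p-values reflect how much these libraries varied, and that variation may be technical.

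Most kinesins have a motor domain that binds ATP and microtubules, joined to a stalk and a tail that holds a cargo or a second microtubule. In dividing cells, the mitotic kinesins push spindle poles apart, bundle the central spindle, move chromosomes and shorten microtubule ends. Many of their genes are transcribed mainly in G2 and M phase. The transport kinesins carry vesicles, mitochondria and other cargo through cells at all stages of the cycle, and several are found mostly in neurons. In bulk RNA, a larger share of cells in G2 and M phase and more RNA per such cell cannot be told apart.

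The libraries held 36843190 to 42412703 counts, with the lowest total in CNTNAP2-203 OE replicate 3. CNTNAP2 had 0, 3 and 4 counts in the controls and 119280 to 156055 counts in CNTNAP2-203 OE. The 7 squamous keratinocyte markers listed, among them KRT5 and TP63, were all tested and together reached 13170 to 15190 CPM in the controls and 13330 to 16240 CPM in CNTNAP2-203 OE (CPM, counts scaled to library size and by TMM, which balances libraries of different makeup). Of these 7, KRT5 alone had a positive change (0.34) and was higher without overlap between groups. KRT17 and DSG3 were lower without overlap (-0.57 and -0.64), and none of the 7 passed the edgeR test. Over all tested genes 13.7% were higher and 12.8% lower without overlap. Summed markers of fibroblasts stayed at or below 45.9 CPM, of leukocytes at 37.8 and of endothelium at 11.5 CPM in every library. Summed neuronal markers were at 13.8 to 25.3 CPM in the controls and 26.8 to 32.9 CPM in CNTNAP2-203 OE, without overlap and mostly from TUBB3 (log2 fold change 0.65, edgeR adjusted p = 0.290), and their part in the kinesin results was not tested. The first 3 sums came largely from COL1A1, CD68 and CDH5, all detected. Their means were 29.6, 31.1 and 6.04 CPM in the controls and 25.7, 33.9 and 7.94 CPM in CNTNAP2-203 OE. Of the markers in these 4 lists, KDR and SYN1 had no count in any library, and COL3A1, LYZ and GAP43 had none in at least 5. CNTNAP2-203 OE replicate 3 differed from the mean of replicates 1 and 2 by gene length. Relative to that mean, its median log2 CPM was higher by 0.21 in the shortest tercile of annotated genes. It was at 0.06 in the middle tercile and lower in the longest tercile, at -0.17. The same comparison was not made for the other libraries.

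Of 13 tested mitotic kinesins 2 rose in the CNTNAP2-203 OE cells and most others had higher means there without passing the test. In 12 of the 13 tested the log2 fold change was above 0, as in 49.6% of all tested genes, and the median of the 13 was 0.50 (1.41-fold). The spindle motor KIFC1 and the chromosome-arm motor KIF22 rose (1.63-fold and 1.59-fold), and none fell. The call is an adjusted p under 0.05 in edgeR's quasi-likelihood test over 18786 genes, a rule by which 0.798% of all tested genes were called higher and 0.596% lower. Over all tested genes the median log2 fold change was -0.00.

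KIFC1 encodes a minus-end-directed motor that slides spindle microtubules and gathers extra centrosomes into poles. It was at 89.2, 72.0 and 69.3 CPM in control replicates 1, 2 and 3 and at 125, 128 and 124 CPM in CNTNAP2-203 OE replicates 1, 2 and 3. Every CNTNAP2-203 OE library was above every control, and these 3 libraries lay closer together than the controls did. The log2 fold change was 0.71 (SE 0.117, edgeR quasi-likelihood adjusted p = 0.0390). KIFC1 (ENSG00000237649) lies at chr6:33391536-33409924 on the plus strand in GENCODE 29 (GRCh38), and 12.7% of its exon bases also belong to RPL12P1, a pseudogene on the opposite strand with at most 18 counts in a library.

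KIF22, also called Kid, encodes a motor that binds DNA and pushes chromosome arms away from the poles. It was at 76.0, 64.8 and 68.8 CPM in control replicates 1, 2 and 3 and at 104, 107 and 121 CPM in CNTNAP2-203 OE replicates 1, 2 and 3. The groups did not overlap, and the highest value was that of CNTNAP2-203 OE replicate 3, the library in which most other kinesins were lowest in their group. The log2 fold change was 0.67 (SE 0.108, edgeR quasi-likelihood adjusted p = 0.0374). KIF22 (ENSG00000079616) lies at chr16:29790719-29805385 on the plus strand, and the antisense gene AC009133.4, which shares 13.0% of its exon bases, had 1 count in all libraries together.

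The calls of KIFC1 and KIF22 depended on 5 of the 6 libraries. Both were lost when any 1 of the 3 controls or CNTNAP2-203 OE replicate 1 or 2 was left out, with adjusted p from 0.0728 to 0.193, and both were called without CNTNAP2-203 OE replicate 3 (adjusted p = 0.0320 for KIFC1 and 0.0246 for KIF22). When 1 of those 5 libraries was left out, 0.0411% to 0.222% of all genes were called higher, against 0.798% with all libraries. Without CNTNAP2-203 OE replicate 3 it was 1.59%. With any 1 library left out, the log2 fold change was 0.63 to 0.83 for KIFC1 and 0.59 to 0.73 for KIF22. DESeq2 and limma-voom called both genes as well. With 13 tested members, 11 had an unadjusted p under 0.05 and a positive change, a rule met by 9.41% of all genes, and none had one with a negative change, a rule met by 7.84%.

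**Figure D1:**
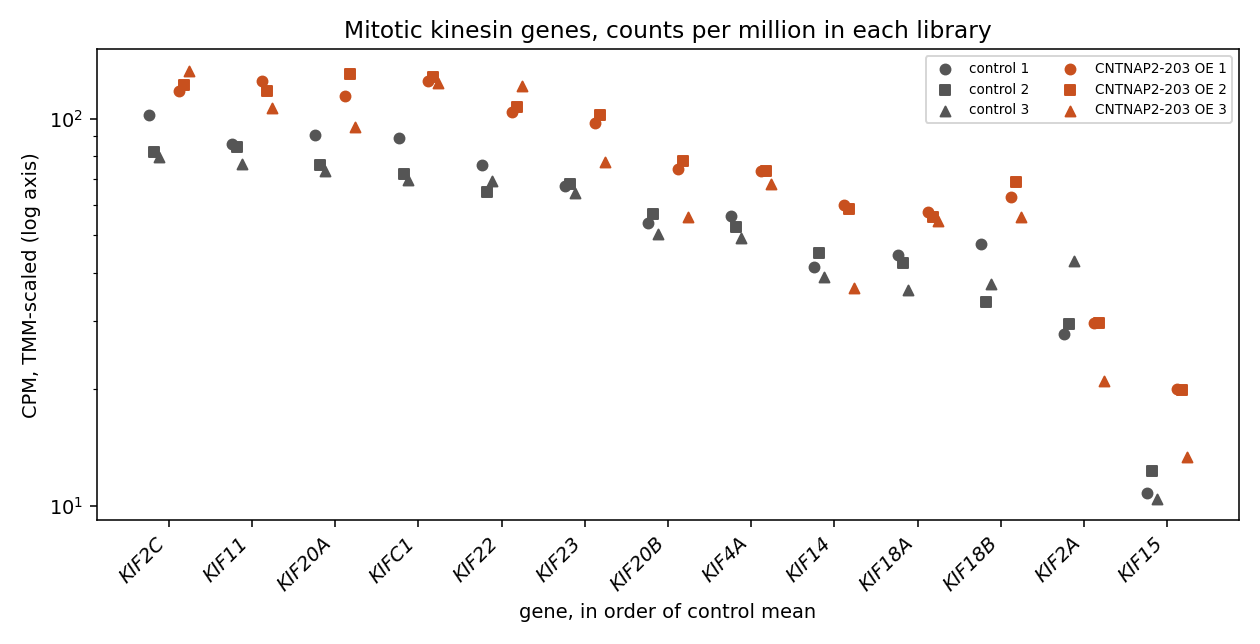
CPM (TMM-scaled, log axis) of the 13 tested mitotic kinesin genes in each of the 6 libraries, ordered by control mean. Control libraries are grey and CNTNAP2-203 OE libraries orange, 1 point per library. In 10 genes the 3 orange points lie above the 3 grey ones, and in KIF14, KIF20B and KIF2A the groups overlap.

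The motors that build the bipolar spindle had higher means without passing the test over all genes. KIF11, or Eg5, which slides spindle poles apart, was at 86.2, 84.3 and 76.2 CPM in the controls and at 125, 118 and 106 CPM in CNTNAP2-203 OE (log2 fold change 0.50, SE 0.104, edgeR adjusted p = 0.0679). KIF15, which can hold the spindle open beside KIF11, was at 10.8, 12.3 and 10.4 CPM against 20.1, 19.9 and 13.4 CPM (0.67, SE 0.184, edgeR adjusted p = 0.130). In both genes the groups did not overlap, and for KIF15 the margin was small, as CNTNAP2-203 OE replicate 3 lay near control replicate 2.

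Kinesins that act on microtubule ends, at the kinetochore or on astral microtubules, followed. KIF2C, or MCAK, a depolymerase that frees wrongly attached microtubules, was at 102, 82.2 and 79.4 CPM in the controls and at 118, 122 and 133 CPM in CNTNAP2-203 OE (log2 fold change 0.50, edgeR adjusted p = 0.0993). KIF18A, which dampens chromosome movements at the metaphase plate, was at 44.6, 42.3 and 36.0 CPM against 57.3, 55.8 and 54.5 CPM (0.45, edgeR adjusted p = 0.0986). KIF18B, which shortens astral microtubules, was at 47.4, 33.6 and 37.4 CPM against 62.9, 68.8 and 55.6 CPM (0.66, edgeR adjusted p = 0.0836). The groups were separate in all 3 genes, and KIF2C was again highest in CNTNAP2-203 OE replicate 3.

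Motors of the central spindle and of cytokinesis were more uneven. KIF4A, which binds chromosome arms and the overlap of midzone microtubules, was at 56.2, 52.4 and 49.2 CPM in the controls and at 73.2, 73.1 and 67.9 CPM in CNTNAP2-203 OE (log2 fold change 0.44, edgeR adjusted p = 0.0778). KIF23, the motor subunit of centralspindlin, was at 67.1, 67.9 and 64.4 CPM against 97.4, 102 and 77.5 CPM (0.47, edgeR adjusted p = 0.109). KIF20A, which brings passenger proteins to the midzone, was at 90.8, 76.0 and 73.4 CPM against 114, 130.0 and 95.1 CPM (0.50, edgeR adjusted p = 0.139). These 3 did not overlap between groups, with KIF20A closest to doing so.

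KIF14, which localises the citron kinase in the midbody, and KIF20B, a motor needed to complete cytokinesis, did overlap. KIF14 was at 41.4, 45.1 and 39.0 CPM in the controls and at 59.9, 58.4 and 36.5 CPM in CNTNAP2-203 OE, so that replicate 3 lay below every control (log2 fold change 0.30, SE 0.187, edgeR adjusted p = 0.448). KIF20B was at 53.9, 56.6 and 50.2 CPM against 73.9, 77.9 and 55.8 CPM (0.37, SE 0.139, edgeR adjusted p = 0.228). Without CNTNAP2-203 OE replicate 3 both passed the edgeR test, with adjusted p = 0.0404 for KIF14 and 0.0346 for KIF20B. The number of mitotic kinesins called higher was 9 without that library, against 1.59% of all genes called higher there, and 0 without any 1 of the other 5. In those 5 fits few genes of any kind were called higher, 0.0617%, 0.0411% and 0.0621% without control replicate 1, 2 and 3, and 0.0828% and 0.222% without CNTNAP2-203 OE replicate 1 and 2. DESeq2 called 9 higher on all 6 libraries, against 4.31% of the genes to which it gave an adjusted p, and limma-voom called 2, against 0.516%. Other edgeR fits called 2 or 3 mitotic kinesins higher: DESeq2's size factors (0.735% of all genes), upper-quartile scaling (0.633%), no filter (0.603%), a filter of 1 CPM in 3 libraries (1.05%) and removal of the length trend (1.32%). With the replicate number as a block none was called, and 0.0586% of all genes.

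KIF2A, a depolymerase of spindle poles that also works in cells that do not divide, was the 1 tested mitotic kinesin with a negative change. It was at 27.8, 29.5 and 42.9 CPM in control replicates 1, 2 and 3 and at 29.7, 29.8 and 21.1 CPM in CNTNAP2-203 OE replicates 1, 2 and 3. The difference came from the high value of control replicate 3 and the low value of CNTNAP2-203 OE replicate 3, while the other 4 libraries lay within 2 CPM of each other (log2 fold change -0.32, SE 0.205, edgeR adjusted p = 0.466). The last 2 mitotic kinesins were not tested. KIF2B, a relative of KIF2C found mainly in testis, had no count in any library, which allows at most 0.0857 CPM (3 counts, TMM-scaled) in the shallowest. KIF4B, an intronless near-copy of KIF4A, had 2 to 9 counts in a library, and reads of the 2 copies may be split.

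Most mitotic kinesin promoters held, near the gene start, a short word that was absent there from the 12 transport kinesins, of 17, with a promoter sequence. A CHR element (cell cycle genes homology region), searched as TTTGAA and also in the variant form TTTAAA, binds the MuvB complex and, often with CCAAT boxes bound by NF-Y, limits transcription to G2 and M phase. RefSeq promoter windows on GRCh38.p14, from 250 bases before to 50 after each gene start, were found for 34 of the 42 kinesins, with more than 1 window for some genes. None was used for KIF5A, KIF13B, KIF19, KIF21B, KIF26B, KIF27, KIFC2 and KIFC3. Both strands were searched. The 6 mitotic promoters below were chosen to show KIFC1 and KIF22 together with the spacing of the words in KIF11, KIF4A, KIF18B and KIF20A. They run from 100 bases before to 12 after the start, with CHR and CCAAT words in capitals. On the opposite strand the first CHR form is read as TTCAAA and a CCAAT word is read as ATTGG.
KIFC1: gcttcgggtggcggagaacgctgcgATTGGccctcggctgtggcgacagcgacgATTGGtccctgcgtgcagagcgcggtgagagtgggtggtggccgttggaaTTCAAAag
KIF22: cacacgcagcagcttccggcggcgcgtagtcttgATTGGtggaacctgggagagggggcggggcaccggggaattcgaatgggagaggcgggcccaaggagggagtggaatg
KIF11: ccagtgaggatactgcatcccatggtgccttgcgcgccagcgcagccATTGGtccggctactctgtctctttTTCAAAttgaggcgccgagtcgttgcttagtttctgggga
KIF4A: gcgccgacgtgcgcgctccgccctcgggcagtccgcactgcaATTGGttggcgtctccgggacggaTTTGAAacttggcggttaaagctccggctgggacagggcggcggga
KIF18B: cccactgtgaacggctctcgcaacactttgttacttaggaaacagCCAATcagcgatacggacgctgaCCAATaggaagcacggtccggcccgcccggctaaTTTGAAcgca
KIF20A: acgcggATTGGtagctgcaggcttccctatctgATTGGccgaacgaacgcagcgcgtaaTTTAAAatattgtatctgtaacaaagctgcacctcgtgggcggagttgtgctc
In GRCh38.p14 these are chr6:33391723-33391834 (plus strand), chr16:29790651-29790762 (plus strand), chr10:92593030-92593141 (plus strand), chrX:70290004-70290115 (plus strand), chr17:44947762-44947873 (minus strand) and chr5:138179012-138179123 (plus strand).

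In KIFC1, KIF11, KIF4A, KIF18B and KIF20A a CCAAT word stood upstream of a CHR word near the RefSeq start. These starts are not those of the GENCODE 29 genes: they lie 287, 14, 393 and 32 bases inside the gene for KIFC1, KIF4A, KIF20A and KIF22, and 156 and 62 bases upstream of it for KIF11 and KIF18B. Which start the cells used was not measured. KIF22, the other kinesin that rose, held a CCAAT word but no CHR word in this window. The promoters of KIF5B and KIF1C, the most abundant transport kinesins per length, are shown in the same way for contrast.
KIF5B: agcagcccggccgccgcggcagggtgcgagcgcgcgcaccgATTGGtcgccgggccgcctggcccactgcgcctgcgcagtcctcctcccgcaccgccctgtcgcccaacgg
KIF1C: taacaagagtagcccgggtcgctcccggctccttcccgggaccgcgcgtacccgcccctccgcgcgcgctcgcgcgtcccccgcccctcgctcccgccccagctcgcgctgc
These are chr10:32056414-32056525 (minus strand) and chr17:4997850-4997961 (plus strand). KIF5B held a CCAAT word here and its TTTGAA word farther upstream, at 140 bases before the start, and KIF1C held neither. The other CHR word in a transport promoter was that of KIF16B, at 241 bases before the start.

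Between 100 bases before and 50 after the start, 12 of 15 mitotic kinesins (80%) had a CHR word, all but KIF2A, KIF2B and KIF22, against 0 of 12 transport and 0 of 7 ciliary and other kinesins. The 12 include KIF4B, the near-copy of KIF4A that was not tested. Of all 27305 genes with a window, 13.6% had a CHR word in that stretch (11.2% of the 35116 windows). A CCAAT word stood there in 11 of 15 mitotic kinesins (73.3%), 2 of 12 transport (16.7%) and 3 of 7 ciliary and other kinesins (42.9%). It stood there in 25.3% of all genes. E2F words were searched as TTCCCGC and in the variant forms TTGGCGC (which can overlap a reversed CCAAT) and, last, TTCGCGC. They were found in that stretch in 2 of 15 mitotic kinesins (13.3%), KIF15 and KIF18B, and in 7.33% of all genes. Among transport kinesins it was 0 of 12, and among ciliary and other kinesins 1 of 7 (14.3%). KIF18A had its E2F words a few bases farther upstream. All 11 tested mitotic kinesins with a CHR word had a positive log2 fold change, from 0.30 to 0.71. Over all tested genes with a window, 50.5% of the 1139 with such a word and 51.2% of the 10141 without it had a positive change. Of the 2 tested mitotic kinesins without one, KIF22 was at 0.67 and KIF2A at -0.32. A match of letters is a description of the sequence and does not show that a factor binds there.

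**Figure D2:**
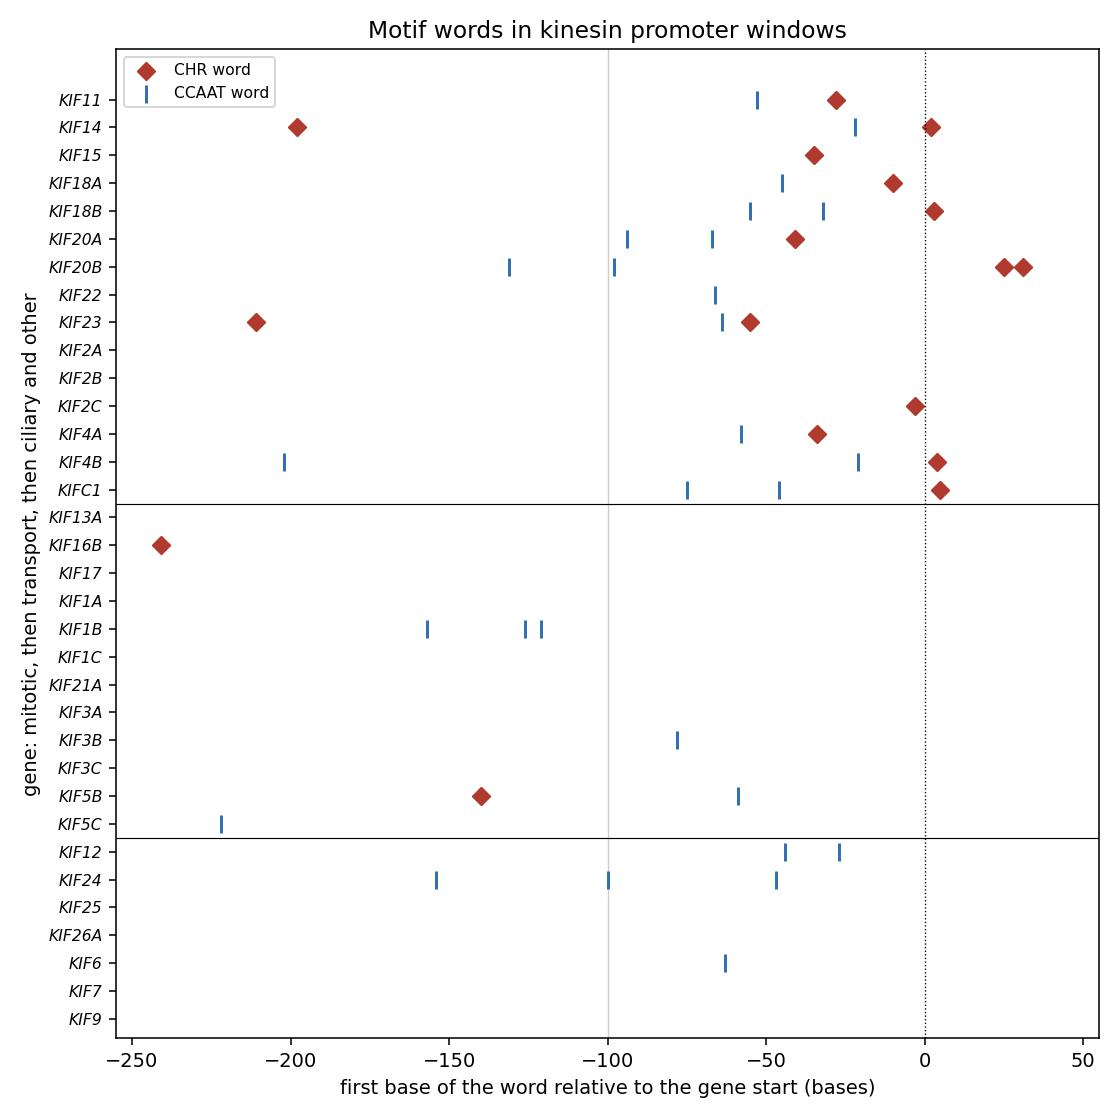
Position of CHR words (red diamonds) and CCAAT words (blue ticks) relative to the gene start, in bases, in the RefSeq promoter windows of 34 kinesins, pooled over the windows of a gene. The dotted line is the gene start and the grey line stands 100 bases before it; 12 mitotic kinesins have a diamond to the right of the grey line and no transport kinesin has one.

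No transport kinesin passed the edgeR test. Among 15 tested members 12 were below 0 in log2 fold change, where 49.6% of all tested genes were above 0. The class median was -0.18 (0.886-fold). None was called in either direction by edgeR, against 0.798% of all genes called higher and 0.596% lower. At an unadjusted p under 0.05, 2 had a negative change, KIF21B and KIFC2, a rule met by 7.84% of all genes. None was called by limma-voom, against 0.367% of all genes called lower, and DESeq2 called 1 lower (KIF21B), against 2.88% of its genes, and none higher. The lean to lower values was tied to 1 library. Without CNTNAP2-203 OE replicate 3 the median was -0.01, and 4 members that had a negative change with all libraries, KIF1B, KIF13A, KIF21A and KIF1C, had values of 0.012, 0.046, 0.010 and 0.0019. After each library's trend with exon length was removed, an alternative chosen after the data were seen, the median was -0.06. Members moved unequally: KIF1B went from -0.18 to -0.06 and KIF13A from -0.084 to -0.0060. KIF5B went from -0.19 to -0.18 and KIF3B from -0.19 to -0.17. Without any 1 library edgeR called none of them lower, as it called 0.0308%, 0.0309% and 0.0311% of all genes without control replicates 1, 2 and 3, and 0.0362%, 0.155% and 1.21% without CNTNAP2-203 OE replicates 1, 2 and 3. None was called lower with DESeq2's size factors (0.586% of all genes), upper-quartile scaling (0.596%), the filter of 1 CPM (0.823%) or the block (0.0319%).

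None of the abundant cargo motors passed the test. KIF1C, which carries vesicles between Golgi and cell periphery and had the highest CPM of all kinesins, was at 160, 151 and 153 CPM in the controls and at 148, 163 and 148 CPM in CNTNAP2-203 OE (log2 fold change -0.02, SE 0.0905, edgeR adjusted p = 0.949). KIF5B, the ubiquitous heavy chain of conventional kinesin, was at 110, 136 and 120 CPM against 118, 119 and 82.9 CPM (-0.19, SE 0.158, edgeR adjusted p = 0.575). KIF1B, which carries mitochondria and synaptic vesicle precursors, was at 85.7, 94.7 and 92.4 CPM against 91.9, 92.0 and 57.7 CPM (-0.18, SE 0.178, edgeR adjusted p = 0.651). For KIF5B and KIF1B the 2 other CNTNAP2-203 OE libraries lay within the range of the controls, and replicate 3 alone lay below it.

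CNTNAP2-203 OE replicate 3 was also the lowest library for KIF13A, a motor of endosomes and melanosomes, at 76.6, 87.6 and 82.6 CPM in the controls and 82.8, 87.6 and 62.4 CPM in CNTNAP2-203 OE, and for KIF21A, at 39.2, 48.2 and 43.2 CPM against 44.8, 43.2 and 31.6 CPM. KIF13B, a relative of KIF13A, was at 31.5, 32.2 and 34.7 CPM against 29.6, 35.8 and 24.2 CPM. KIF16B, which moves early endosomes, was at 25.6, 25.6 and 27.5 CPM against 23.7, 24.98 and 15.2 CPM, with every CNTNAP2-203 OE library below the controls but only replicate 3 far below (log2 fold change -0.30, SE 0.187, edgeR adjusted p = 0.454). The transport kinesins had long transcripts, with a median of 8580 exon bases against 4668 for the mitotic ones. Relative to replicates 1 and 2, CNTNAP2-203 OE replicate 3 differed by a median log2 CPM of -0.42 in transport and -0.24 in mitotic kinesins. Over all genes the median was -0.17 in the longest tercile, which holds the transport median length. It was 0.06, of opposite sign, in the middle tercile (2775 to 5606 bases), which holds the mitotic median length. Whether transcript length has a part in these values was not tested gene by gene.

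**Figure D3:**
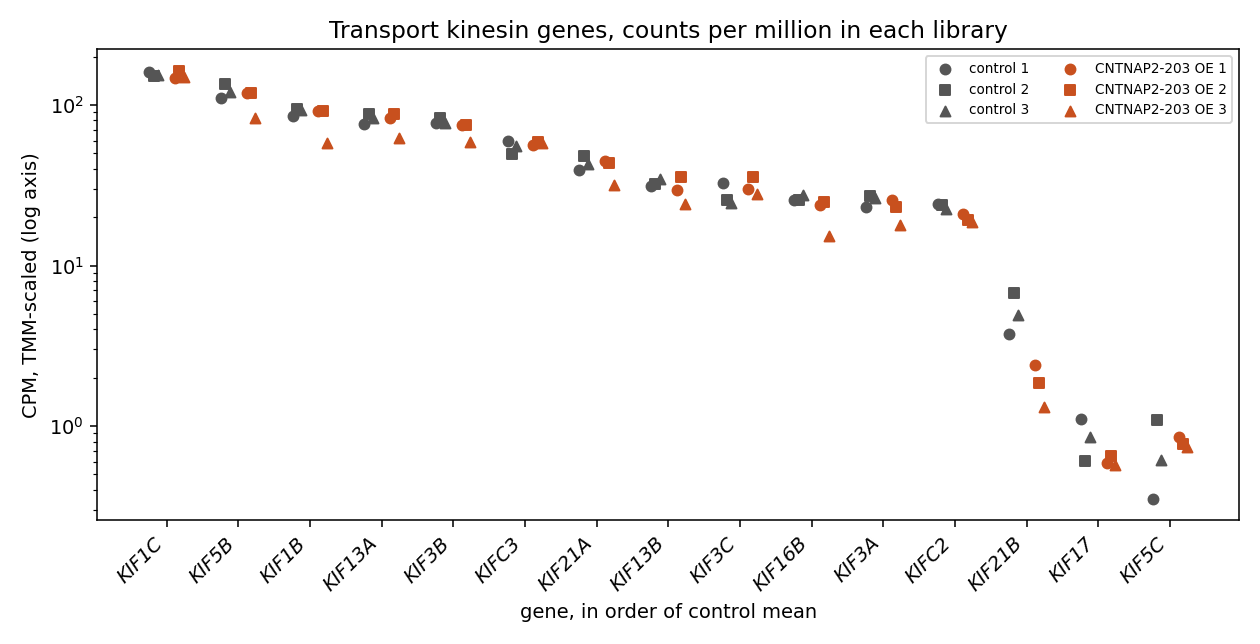
CPM (TMM-scaled, log axis) of the 15 tested transport kinesin genes in each of the 6 libraries, ordered by control mean. Control libraries are grey and CNTNAP2-203 OE libraries orange, 1 point per library. CNTNAP2-203 OE replicate 3 (orange triangle) lies below the other libraries in KIF5B, KIF1B, KIF13A and KIF3B, and KIF21B is lower in all 3 CNTNAP2-203 OE libraries.

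The heterotrimeric kinesin-2 motor, which builds cilia and carries vesicles, is made of KIF3A with KIF3B or KIF3C. KIF3A was at 23.2, 27.1 and 26.4 CPM in the controls and 25.7, 23.1 and 17.8 CPM in CNTNAP2-203 OE, and KIF3B at 77.3, 83.1 and 77.1 CPM against 74.8, 75.03 and 59.0 CPM. KIF3C went the other way in its mean, at 32.9, 25.7 and 24.4 CPM against 30.1, 35.5 and 27.8 CPM. None of these differences passed the edgeR test (adjusted p = 0.541, 0.461 and 0.606 in that order). KIF17, the homodimeric kinesin-2, was near 1 CPM or below in all libraries.

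KIF21B, a kinesin known from neurons and lymphocytes that also pauses microtubule growth, had the lowest log2 fold change of all kinesins. It was at 3.76, 6.74 and 4.92 CPM in the controls and at 2.41, 1.86 and 1.32 CPM in CNTNAP2-203 OE. Each CNTNAP2-203 OE library was below each control, and the difference did not rest on replicate 3. The log2 fold change was -1.46 (SE 0.298, edgeR adjusted p = 0.0641), and -1.27 without replicate 3 (edgeR adjusted p = 0.0768). It was called lower by DESeq2 (adjusted p = 0.000649), by edgeR with no filter on low counts (adjusted p = 0.0311, 0.443% of all genes) and by edgeR after removal of the length trend (adjusted p = 0.0418, 0.937% of all genes), and not by limma-voom (adjusted p = 0.0895). At 46 to 266 counts in a library its values carry more counting error than those of the abundant motors. KIF21B (ENSG00000116852) lies at chr1:200969390-201023700 on the minus strand.

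The minus-end motors KIFC2 and KIFC3 differed from KIFC1. KIFC2 was at 24.2, 23.8 and 22.6 CPM in the controls and at 20.9, 19.1 and 18.8 CPM in CNTNAP2-203 OE (log2 fold change -0.26, SE 0.111, edgeR adjusted p = 0.277), with groups that did not overlap. FOXH1 on the opposite strand covers 17.8% of its exon bases and had at most 40 counts in a library. KIFC3, which works at cell junctions and the Golgi, was at 59.2, 49.3 and 55.4 CPM against 56.0, 59.0 and 57.9 CPM (0.08, edgeR adjusted p = 0.740). In all, 4 transport kinesins were lower without overlap between groups (KIF3B, KIF16B, KIF21B and KIFC2) and none higher. For the mitotic kinesins it was 10 higher and none lower, and over all tested genes 13.7% were higher and 12.8% lower in this sense.

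Neuronal cargo motors were close to absent. KIF1A, the motor of synaptic vesicle precursors, had 3 counts in control replicate 3 and 0 elsewhere, and KIF5A had 0 to 17 counts in a library; neither was tested. KIF5C was tested at 14 to 43 counts, and its log2 fold change was 0.20 (SE 0.423, edgeR adjusted p = 0.839).

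**Figure D4:**
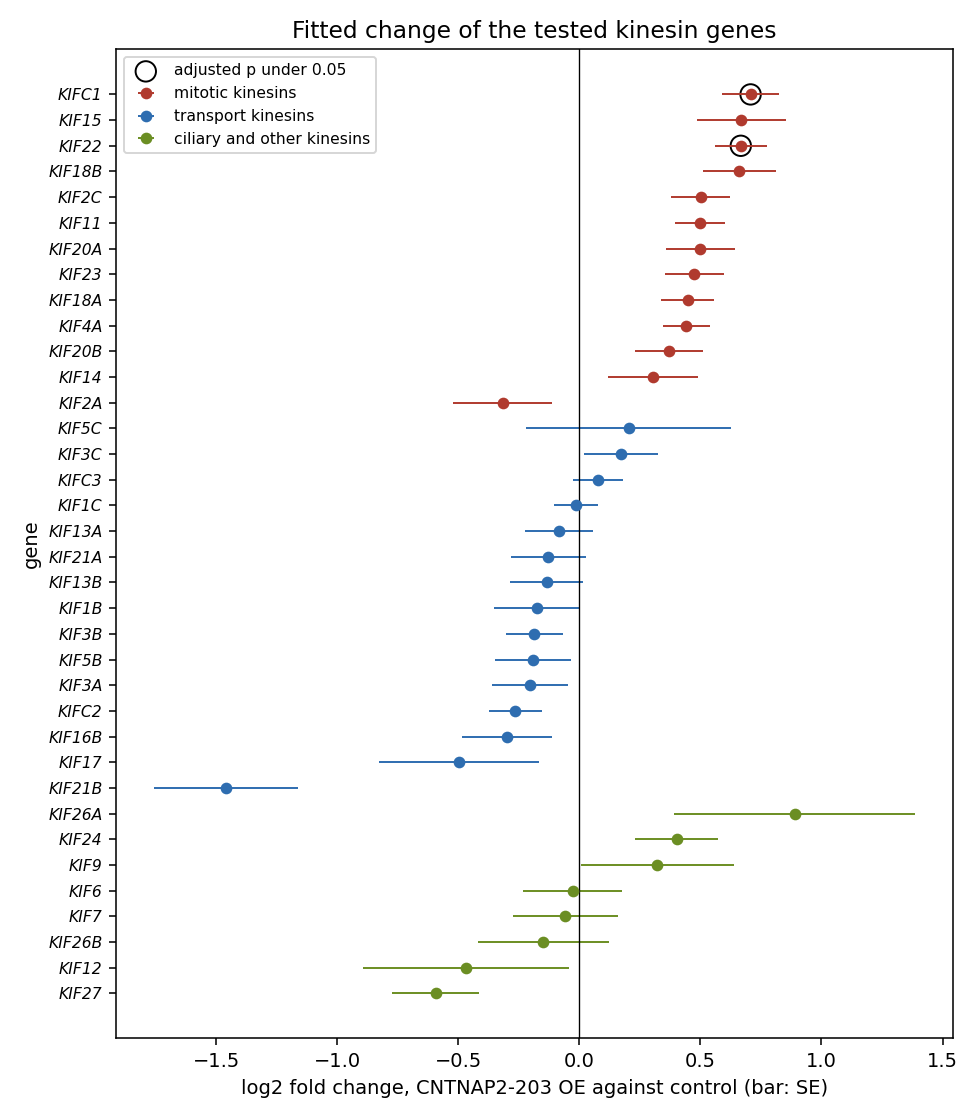
Fitted log2 fold change of CNTNAP2-203 OE against control for the 36 tested kinesin genes, with bars of 1 SE, sorted within the mitotic (red), transport (blue) and ciliary and other (green) classes. Black circles mark an adjusted p under 0.05 in edgeR, which KIFC1 and KIF22 reached. All mitotic members but KIF2A lie to the right of 0, between 0.30 and 0.71.

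Among the 8 tested ciliary and other kinesins none was called by edgeR or limma-voom, and none of the 6 to which DESeq2 gave an adjusted p was called by it. At an unadjusted p under 0.05, 1 had a positive change (KIF24) and 1 a negative change (KIF27), close to the 9.41% and 7.84% of all genes, and the median log2 fold change was -0.04. KIF24, which holds back cilium growth at the mother centriole, was at 12.4, 11.04 and 10.5 CPM in the controls and at 16.4, 16.7 and 11.8 CPM in CNTNAP2-203 OE (log2 fold change 0.40, SE 0.170, edgeR adjusted p = 0.280). KIF27, a relative of KIF7 linked to motile cilia, was at 12.4, 12.7 and 11.1 CPM against 8.69, 9.18 and 6.09 CPM (-0.59, SE 0.181, edgeR adjusted p = 0.157). Its groups did not overlap, those of KIF24 did, and KIF27 was at -0.44 when CNTNAP2-203 OE replicate 3 was left out.

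KIF7, the ciliary tip regulator of Hedgehog signalling, was at 6.78, 7.14 and 5.94 CPM in the controls and at 7.84, 6.71 and 4.52 CPM in CNTNAP2-203 OE (log2 fold change -0.06, edgeR adjusted p = 0.915). It shares 11.8% of its exon bases with TICRR on the opposite strand, and strand was not kept by the kit. KIF6, KIF9, KIF12, KIF26A and KIF26B were each at or below 3.04 CPM in every library, and their changes, from -0.47 to 0.89, did not pass the test. The highest of these, for KIF26A, came from 5 to 21 counts in a library. KIF19 had no count in any library and KIF25 had 2 counts in CNTNAP2-203 OE replicate 2 and none elsewhere.

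Levels of different genes were compared per transcript length, as FPKM (fragments per kilobase, scaled to library depth) from the second deposited table. In the controls the highest levels were those of KIFC1 at 21.0 ± 2.94, KIF2C at 20.1 ± 2.83, KIF20A at 17.3 ± 2.02 and KIF5B at 17.3 ± 1.89 FPKM (SD, n = 3), neighbours that did not differ beyond their spread. KIF1C followed at 14.9 ± 0.460, KIF11 at 13.6 ± 0.913 and KIF22 at 13.4 ± 1.05 FPKM. In CNTNAP2-203 OE the first 5 were all mitotic: KIFC1 at 33.4 ± 1.60, KIF2C at 27.5 ± 0.909, KIF20A at 23.8 ± 4.41, KIF22 at 20.7 ± 1.04 and KIF11 at 18.7 ± 2.04 FPKM. KIF5B went from rank 4 to rank 6 of 42 and KIF1C from 5 to 7. KIFC1 lay above KIF2C within every library of both groups. Their ranges overlapped in the controls and did not in CNTNAP2-203 OE. In CNTNAP2-203 OE the range of KIF2C overlapped that of KIF20A, and KIF20A, KIF22 and KIF11 overlapped. The most abundant transport kinesin after KIF5B and KIF1C was KIF3B, at 10.7 ± 0.513 against 9.17 ± 1.49 FPKM. The ciliary and other class was led by KIF24 (1.53 ± 0.134 against 1.97 ± 0.425 FPKM), KIF27 and KIF7.

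As a share of all kinesin FPKM, the mitotic class made up 64.7%, 60.7% and 61.1% in control replicates 1, 2 and 3 and 70.9%, 70.9% and 73.7% in CNTNAP2-203 OE replicates 1, 2 and 3. The transport class made up 33.3%, 37.2% and 36.82% in the controls and 27.3%, 27.4% and 24.8% in CNTNAP2-203 OE. The summed FPKM of transport kinesins was 74.8 and 78.5 in CNTNAP2-203 OE replicates 1 and 2, inside or close to the 76.6 to 81.4 of the controls, and 57.7 in replicate 3. That of mitotic kinesins was 172 to 203 in CNTNAP2-203 OE and 128 to 149 in the controls, so the shift in replicates 1 and 2 came from the mitotic members.

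Set against each other in every library, the classes separated the groups. The mean log2 CPM of the tested mitotic kinesins minus that of the transport kinesins, relative to the control means, was 0.15, -0.09 and -0.06 in control replicates 1, 2 and 3. In CNTNAP2-203 OE replicates 1, 2 and 3 it was 0.62, 0.63 and 0.73. In replicate 3 both classes were lower than in replicates 1 and 2, the mitotic one at 0.29 against 0.52 and 0.55 and the transport one at -0.44 against -0.10 and -0.08, so that the distance between them was as large there as in the other 2. No test was made of this difference, as the members were chosen with results known.

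**Figure D5:**
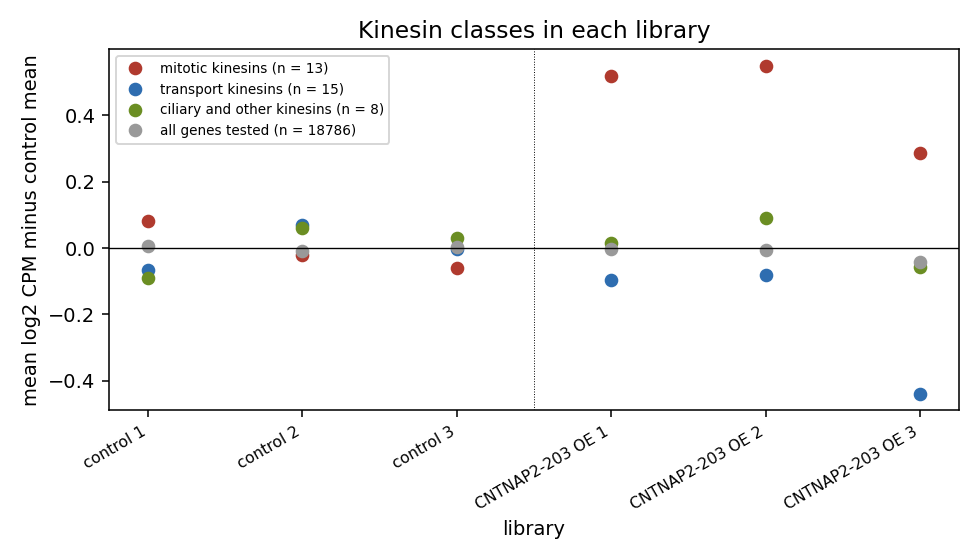
Mean log2 CPM of the tested members of each kinesin class in each library, relative to the mean of the 3 controls, with all 18786 tested genes in grey. The mitotic class (red) lies between 0.29 and 0.55 in the CNTNAP2-203 OE libraries, the transport class (blue) at -0.10, -0.08 and -0.44, and all genes near 0.

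Some partners of the mitotic motors passed the edgeR test. Of 20 listed genes of spindle and midzone proteins that work with kinesins, all tested, 3 rose and none fell (0.798% and 0.596% of all genes), 9 had an unadjusted p under 0.05 with a positive change (9.41% of all genes), and the median log2 fold change was 0.32. The 3 were SPAG5 (astrin), a kinetochore and spindle protein, at 84.6 ± 2.43 against 53.5 ± 5.69 CPM (SD, n = 3 each; edgeR adjusted p = 0.0374), the contractile ring scaffold ANLN at 288 ± 43.5 against 165 ± 12.7 CPM (edgeR adjusted p = 0.0390), and the spindle protein HMMR at 57.5 ± 0.829 against 36.6 ± 4.70 CPM (edgeR adjusted p = 0.0451). TPX2, which binds KIF11 and KIF15 on the spindle, was at 253 ± 4.13 against 183 ± 21.0 CPM (edgeR adjusted p = 0.0848). RACGAP1, the partner of KIF23 in centralspindlin, was at 120 ± 16.3 against 87.7 ± 5.64 CPM (edgeR adjusted p = 0.123), PRC1, the midzone bundler that recruits KIF4A, at 89.4 ± 35.7 against 71.9 ± 19.4 CPM (edgeR adjusted p = 0.662), and CENPE at 44.6 ± 8.29 against 35.7 ± 5.65 CPM (edgeR adjusted p = 0.386). TPX2, RACGAP1, PRC1 and CENPE were named after their values were seen. Of the 20 partners 16 had a positive log2 fold change and 4 a negative one (CLASP1, CLASP2, CKAP5 and NUMA1). Of all tested genes 49.6% were above 0. Without overlap between groups, 10 partners were higher and 1 was lower, against 13.7% and 12.8% of all tested genes. The lower one was CLASP1 (log2 fold change -0.21, edgeR adjusted p = 0.470).

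The partners of the transport motors did not pass the test in either direction. Of 24 tested kinesin light chains and cargo adaptors none was called by edgeR, 2 had an unadjusted p under 0.05 with a negative change, a share close to the 7.84% of all genes, and the median was -0.09. The smallest p were those of CLSTN1, a light chain adaptor, at 584 ± 43.1 against 683 ± 21.9 CPM (edgeR adjusted p = 0.283), and FEZ1 (edgeR adjusted p = 0.286). Genes of dynein and dynactin, the opposite-direction motor, had a median of -0.01 over 24 tested, with none called and 1 at an unadjusted p under 0.05 with a positive change, against 9.41% of all genes. The 3 with the smallest p were DYNLL1, ACTR1A and DCTN6, with log2 fold changes of 0.31, 0.21 and 0.21.

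The 23 genes of intraflagellar transport, the cargo trains of kinesin-2, had a median of -0.03, with none called, 1 at an unadjusted p under 0.05 with a positive change and 2 with a negative change, against 9.41% and 7.84% of all genes. HSPB11 (IFT25) had the smallest p of these, at 51.6 ± 12.2 against 30.9 ± 1.18 CPM (edgeR adjusted p = 0.0798), followed by WDR19 (-0.30, edgeR adjusted p = 0.210) and IFT140 (-0.29, edgeR adjusted p = 0.281).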

How the data were processed

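Per the labels' protocols, rRNA was removed from total RNA before TruSeq v2 library preparation, in which strand is not kept. Trim Galore 0.4.4 and hg38 stand in the submitters' processing notes. Aligner, counter, annotation, strand setting and the handling of multiply mapping reads: not given in the sources used here. Control replicate 1 is called single-end in the labels, its reverse reads missing. The authors deposited raw counts per gene and a second table of log2 values. The latter are log2(FPKM + 1), since counts and FPKM then imply gene lengths with a median CV of 0.0731% over libraries, against 2.63% without the offset.

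Counts were tested with edgeR 4.0.16 (R 4.3.3): filterByExpr (minimum count 10), TMM (factors 0.951 to 1.02), robust quasi-likelihood with group as the only term, and Benjamini-Hochberg over 18786 genes. SE is the absolute log2 fold change over the square root of F. Alternatives used DESeq2 1.42.0, limma-voom (limma 3.58.1), other scalings and filters, a replicate block, each library left out, and removal of length trends. Coordinates are from GENCODE 29 (GRCh38), which matched 98.6% of tested genes. The test was run on simulated data. Members, classes, partner lists and motif words were chosen with earlier results of these data known, so no list test was made. Every kinesin is accounted for, with values in every library for those at an unadjusted p under 0.05 and the 3 most abundant of each class. Partner lists name the 3 members with the smallest p, of which 1 is not reported here. Other named genes, overlapping genes included, were chosen after their values were seen.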

Additional observations from a re-analysis of the deposited data

How the results depend on the processing

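The counts are low in number and moved with single libraries and tools. Mitotic kinesins called higher were 2 with all libraries, 0 to 9 when 1 library was left out, 9 with DESeq2, 0 with the replicate block, and 2 or 3 under the other settings. Transport kinesins called lower were 0, and 1 with DESeq2, with no filter and with the length trend removed. The transport median of -0.18 ranged from -0.24 to -0.0085 when 1 library was left out, the last without CNTNAP2-203 OE replicate 3; the mitotic median stayed between 0.44 and 0.56 over every setting tried. With the replicate number as a block, KIFC1 (0.72, edgeR adjusted p = 0.115) and KIF22 (0.67, edgeR adjusted p = 0.125) were not called, and 11 genes of all tested were called higher against 150 without it. Same-numbered libraries did not deviate together (correlations of -0.0824, 0.0454 and -0.0283 over genes), so the numbers are taken as names only.

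Signs changed for kinesins that passed no test. With 1 library left out, log2 fold changes ranged from -0.28 to 0.012 for KIF1B, from -0.18 to 0.046 for KIF13A and from -0.22 to 0.010 for KIF21A, each positive without CNTNAP2-203 OE replicate 3 only. The range was -0.24 to 0.13 for KIF7 (0.13 without CNTNAP2-203 OE replicate 3, 1.56e-06 without control replicate 2), -0.062 to 0.011 for KIF1C (positive without control replicate 1 and without CNTNAP2-203 OE replicates 1 and 3), -0.11 to 0.70 for KIF5C (negative without control replicate 1), -0.39 to 0.048 for KIF26B (positive without control replicate 2) and -0.11 to 0.052 for KIF6 (positive without CNTNAP2-203 OE replicate 2). After removal of the length trend, chosen after the data were seen, KIF6 was at 0.068 and KIF1C at 0.044. The causes were not tested. Kinesins under 1 CPM are limited by depth.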

Other observations

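Reads of genes that share exon bases with a kinesin could add to its counts, since the kit does not mark strand, and these neighbours had their own values. KIF20A overlaps BRD8, a subunit of a histone acetyltransferase complex, and CDC23, a subunit of the anaphase-promoting complex, on the opposite strand. BRD8 was at 57.2 ± 2.37 against 50.1 ± 3.40 CPM (SD, n = 3 each; log2 fold change 0.19, edgeR adjusted p = 0.370) and CDC23 at 70.7 ± 2.86 against 64.4 ± 0.167 CPM (0.13, edgeR adjusted p = 0.468). PDZD11, opposite KIF4A, was at 41.0 ± 6.49 against 34.8 ± 1.91 CPM (0.24, edgeR adjusted p = 0.404), and METTL15, opposite KIF18A, at 14.4 ± 2.05 against 14.4 ± 2.71 CPM (-0.00, edgeR adjusted p = 0.993). These 4 neighbours share at most 3.34% of the exon bases of the kinesin they overlap, and none had a change as large as its kinesin. KIF9-AS1, which covers 14.9% of the exon bases of KIF9, was at 1.11 ± 0.180 against 1.96 ± 0.178 CPM with no overlap between groups (-0.83, edgeR adjusted p = 0.138), while KIF9 had a log2 fold change of 0.32 (edgeR adjusted p = 0.640). IPO11, an importin on the same strand as KIF2A that shares 8.97% of its exon bases, was at 42.2 ± 3.66 against 37.6 ± 5.25 CPM (0.17, edgeR adjusted p = 0.555), where KIF2A had a log2 fold change of -0.32. TICRR, a replication factor opposite KIF7, was at 37.9 ± 9.48 against 28.3 ± 0.993 CPM (0.42, edgeR adjusted p = 0.291).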
